A study of Mus musculus with 8 samples.

Results

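Metallothioneins and the transporters that move zinc across membranes were examined in liver RNA of OVX mice fed with HFD or HFD+WBM. Members were chosen by symbol: Mt1, Mt2, Mt3, Mtf1, Slc30a1, Slc30a10, Slc39a4, Slc39a5, Slc39a8 and Slc39a14. All 10 were measured, each by 1 probe set, out of 19938 genes on the array. Where several probe sets name a gene alone, the rule takes the brightest over all 8 arrays, so the diet groups had no part in that choice. All mice were female C57B1/6J (as labelled), ovariectomized at 7 weeks of age and put on their diet 1 week later for 3 months. The control group received a high fat diet (HFD, 4 mice) and the other group a high fat diet with white button mushroom powder and less corn starch (HFD+WBM, 4 mice), under pair feeding and with the same mineral mix in both diets. Livers were taken after a fast of 4 hours. Each array held the RNA of 1 liver. The diet groups had 8 mice, of which 4 are on arrays, and sham-operated mice were not analysed here. The sources used here do not give the zinc content of the mushroom powder.

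Metallothioneins are small cysteine-rich proteins that hold zinc and copper in the cell, and the liver makes much of them when zinc, glucocorticoids or inflammatory cytokines rise. Mtf1 encodes the zinc-sensing transcription factor that binds metal response elements in the promoters of Mt1, Mt2 and Slc30a1. Transporters of the Slc30a (ZnT) family move zinc out of the cytosol, and those of the Slc39a (ZIP) family move it in. Some of them also carry manganese or iron.

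Mt4, Mt3, Mt2 and Mt1 neighbour each other on mouse chromosome 8 in the assembly GRCm38.p6. RefSeq promoter windows of that assembly, 250 bases before and 50 after a gene's start site, were held for 8 of the 10 genes (10 windows), and Slc39a4 and Slc39a14 had no entry. Each window was searched on both strands for the core of the metal response element, TGCACNC or TGCGCNC. The windows of Mt1 and Mt2 are shown because these genes varied together from mouse to mouse, that of Slc30a1 because it is a known target of Mtf1, and that of Slc30a10 because it differed most clearly between the diets in the other direction. Each is written 5′ to 3′ on the strand of the gene, and capitals mark the metal response cores.
Mt1, chr8:94178839-94179138 (+ strand): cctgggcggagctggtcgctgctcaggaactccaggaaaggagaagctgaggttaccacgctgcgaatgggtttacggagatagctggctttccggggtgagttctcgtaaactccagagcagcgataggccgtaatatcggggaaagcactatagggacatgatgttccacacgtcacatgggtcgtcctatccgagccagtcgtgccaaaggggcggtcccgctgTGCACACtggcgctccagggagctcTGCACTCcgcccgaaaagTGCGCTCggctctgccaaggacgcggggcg
Mt2, chr8:94172368-94172667 (+ strand): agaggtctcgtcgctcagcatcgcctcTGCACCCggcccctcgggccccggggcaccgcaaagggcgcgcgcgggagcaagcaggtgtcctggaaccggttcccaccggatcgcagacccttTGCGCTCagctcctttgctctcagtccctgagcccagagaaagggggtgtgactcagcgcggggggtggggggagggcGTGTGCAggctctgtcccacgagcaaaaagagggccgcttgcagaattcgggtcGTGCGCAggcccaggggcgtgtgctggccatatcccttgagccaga
Slc30a1, chr1:191906531-191906830 (+ strand): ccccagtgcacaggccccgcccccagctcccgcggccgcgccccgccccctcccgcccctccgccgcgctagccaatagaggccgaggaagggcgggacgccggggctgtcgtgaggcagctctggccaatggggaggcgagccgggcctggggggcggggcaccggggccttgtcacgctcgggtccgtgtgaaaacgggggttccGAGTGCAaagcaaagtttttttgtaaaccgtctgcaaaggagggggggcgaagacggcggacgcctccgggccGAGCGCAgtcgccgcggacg
Slc30a10, chr1:185454598-185454897 (+ strand): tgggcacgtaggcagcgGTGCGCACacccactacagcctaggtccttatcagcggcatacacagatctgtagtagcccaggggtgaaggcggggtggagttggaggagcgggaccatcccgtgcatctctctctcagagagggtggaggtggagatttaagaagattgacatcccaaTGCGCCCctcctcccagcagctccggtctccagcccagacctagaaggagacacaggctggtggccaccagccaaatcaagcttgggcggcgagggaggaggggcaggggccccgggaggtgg

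The Mt1 window held 3 cores, the Mt2 window 4, the Slc30a1 window 2 and the Slc30a10 window 3, of which a pair on opposite strands overlaps. The Mt3 window held 1 and the Mtf1 window none. In Slc39a5 and Slc39a8, 1 of the windows of each gene held 1 core and the other held none. Of all 32851 RefSeq windows of this length, 25.7% held at least 1 core and 1.97% held at least 3, against 7 and 3 of the 10 windows here. The RefSeq records of Mt1, Slc30a1, Slc39a5 and Slc39a8 begin upstream of the start sites that their windows use. Bases outside a window, on either side, were not searched, so a gene may hold further cores of either element there. Which start sites the liver uses was not tested. The core of the antioxidant response element, TGACNNNGC, was held by 4 of the 10 windows (those of Mt2 and Slc30a1 and 1 each of Slc39a5 and Slc39a8) and by 12.4% of all windows, and none of these overlapped a metal response core. A match in these letters describes the sequence and does not show that a factor bound there.

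**Figure D1:**
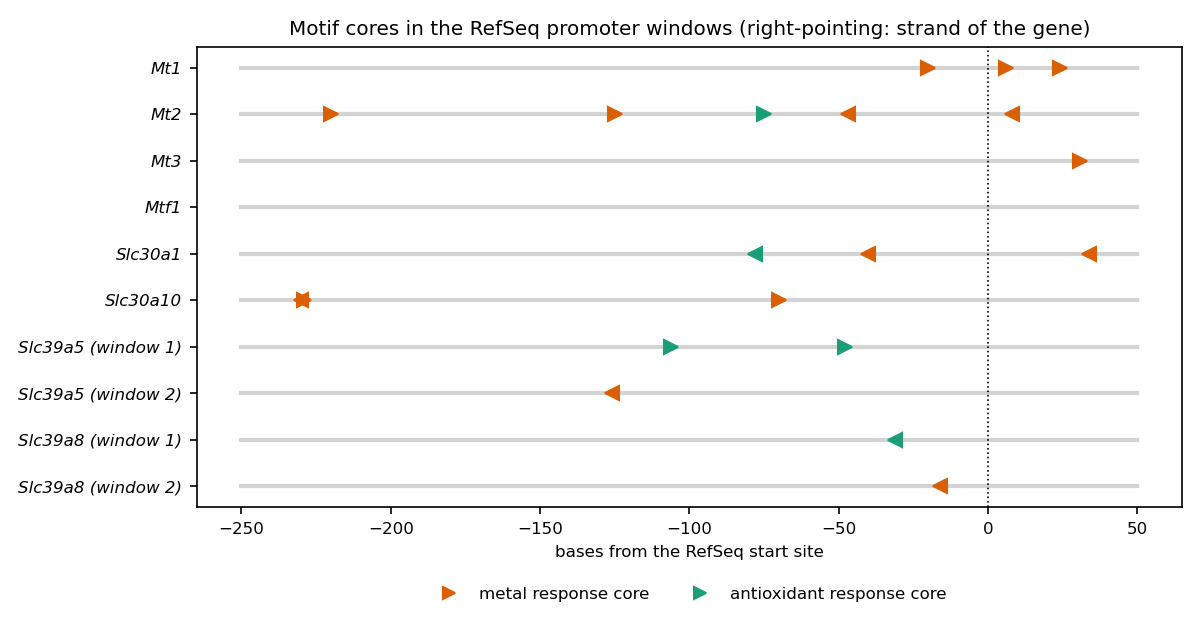
Positions of the metal response core (orange) and the antioxidant response core (green) in the RefSeq promoter windows, in bases from the start site (dotted line), with the direction of each arrow giving the strand relative to the gene. Mt1, Mt2 and Slc30a10 hold 3 or more metal response cores, and the star of Slc30a10 is a pair that overlaps on opposite strands.

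Before the values, the arrays were compared. The median log2 value over all probe sets was 7.04 to 7.22, and HFD replicate 3 stood apart from the remaining arrays (SD over genes of its distance from their mean 0.68, against 0.38 to 0.50). Hepatocyte markers defined the tissue: Alb, Ttr, Apoa1, Tat and Cps1 summed to a log2 value of 15.97 to 16.22 with HFD and 16.11 to 16.24 with HFD+WBM, and none of the 5 passed p under 0.05 before adjustment. Markers of Kupffer cells and other macrophages, the resident and recruited phagocytes of the liver, were lower with HFD+WBM for 7 of 8 genes at that threshold (5 to 8 when a mouse was left out), against 6.9% of all genes, among them Cd68 (1.68-fold), Vsig4 (1.56-fold) and Csf1r (1.53-fold), and the summed level was 12.51 to 13.01 with HFD and 11.94 to 12.49 with HFD+WBM. In whole liver RNA, fewer cells of a type and less RNA per cell cannot be told apart. Against the same 6.9%, stellate cell markers were lower for 3 of 6 genes, and for 1 to 3 when a mouse was left out. Their summed log2 level was 12.07 to 12.59 with HFD and 11.80 to 12.27 with HFD+WBM. Des, a stellate marker, went the other way (log2 difference 0.33) and did not pass. With each gene tested on its own with equal variances, 1 stellate marker was higher and 1 lower. Sinusoidal endothelial markers were lower for 1 of 4 (summed level 11.62 to 12.36 with HFD and 11.43 to 12.02 with HFD+WBM). No lymphocyte (0 of 3), cholangiocyte (0 of 4) or pancreas acinar marker (0 of 3) passed in the limma fit, and the summed levels of these lists overlapped between the diets. The part of these cell types in the results below was not tested.

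Of the 10 genes, 4 passed p under 0.05 before adjustment in a limma fit over all genes, against 11.7% of all genes. Mt1 and Mt2 were higher with HFD+WBM, and Slc30a10 and Slc39a5 were lower. At the thresholds of the study's methods (p under 0.05 before adjustment and at least 2-fold) 3 of the 10 passed, against 0.762% of all genes, with Slc39a5 under 2-fold. No member had an adjusted p under 0.05 over all genes, nor did any other gene (0.0%), and the members had adjusted p of 0.36 to 0.91. With a prior variance tied to signal level, 3 of the 10 had an adjusted p under 0.05 (Mt1, Mt2 and Slc30a10), against 0.697% of all genes. Diet groups did not overlap for 2 of the 10, Slc30a10 and Slc39a5, against 8.23% of all genes (3.21% higher and 5.02% lower with HFD+WBM). The median difference of the 10 was 0.10 (log2), against 0.01 over all genes. The genes were chosen with earlier results of these data known, so these counts describe the list and support nothing about it.

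**Figure D2:**
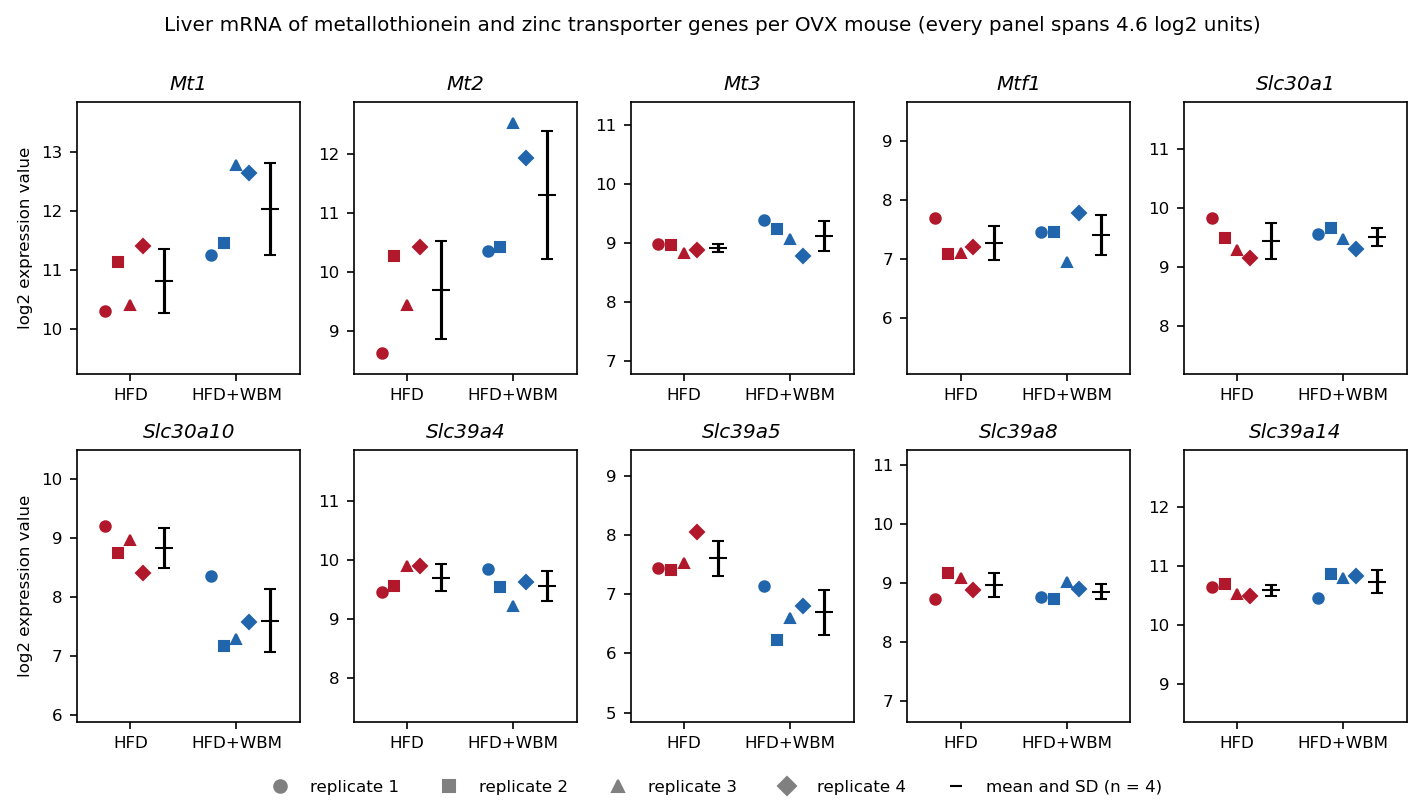
Log2 expression values of the 10 genes in each liver (red points HFD, blue points HFD+WBM, bars the mean and SD of 4 mice, a shape for each replicate number), in panels of equal height. HFD+WBM replicates 3 and 4 stand above all other mice for Mt1 and Mt2, and all HFD+WBM mice lie below all HFD mice for Slc30a10 and Slc39a5.

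Mt1 and Mt2, the metallothioneins that the liver induces, had higher levels under HFD+WBM than under HFD. The log2 expression value of Mt1 (probe set 10574027) was 10.30, 11.13, 10.40 and 11.40 in HFD replicates 1 to 4, and 11.26, 11.45, 12.78 and 12.64 in HFD+WBM replicates 1 to 4. HFD+WBM replicates 3 and 4 stood well above all HFD mice, while HFD+WBM replicate 1 lay below HFD replicate 4, so the groups overlapped. The HFD mean was 10.81 ± 0.54 (SD, n = 4) and the HFD+WBM mean 12.03 ± 0.79 (SD, n = 4), a log2 difference of 1.22 (standard error 0.40, 95% interval 0.33 to 2.12), or 2.34-fold. Limma gave p = 0.012 before adjustment and 0.37 after adjustment over all genes, and the exact permutation test over mice, two-sided, gave p = 0.057, where 0.029 is the smallest that 4 against 4 allows. Mt1 and Mt2 had been singled out in an earlier analysis after their values were seen, so these p-values describe the fit and are not independent evidence.

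Mt2 (probe set 10574023) was 8.63, 10.27, 9.44 and 10.42 in HFD replicates 1 to 4. It was 10.35, 10.42, 12.51 and 11.92 in HFD+WBM replicates 1 to 4. The same HFD+WBM mice, replicates 3 and 4, were the highest, and HFD replicate 1 was the lowest of all 8. From 9.69 ± 0.83 (SD, n = 4) the mean went to 11.30 ± 1.08 (SD, n = 4), a log2 difference of 1.61 (standard error 0.55, 95% interval 0.37 to 2.86), or 3.06-fold. The adjusted p from limma was 0.38 (p = 0.016 before adjustment) with an exact two-sided permutation p of 0.057. Without HFD replicate 1 the log2 difference was 1.26 and no longer passed before adjustment (adjusted p = 0.45 from limma). Limma draws the variance of a gene toward that of all genes, so its standard error is smaller than the SDs of Mt2 alone would give.

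The other metallothioneins of the cluster showed no detectable difference between the diets. Mt3, best known from the brain, was 8.99, 8.97, 8.84 and 8.88 in HFD replicates 1 to 4 and 9.39, 9.24, 9.07 and 8.78 in HFD+WBM replicates 1 to 4. The highest values came from HFD+WBM replicates 1 and 2, which were not the mice with the highest Mt1, and the lowest from HFD+WBM replicate 4. The log2 difference of Mt3 was 0.20 (95% interval -0.16 to 0.57) and did not pass. Pearson's r of Mt3 with Mt1 over the 8 mice was -0.03. Mt4, known from stratified epithelia and no member, was named after its values were seen. Its values were 11.09, 10.98, 11.00 and 10.99 in HFD replicates 1 to 4. In HFD+WBM replicates 1 to 4 they were 11.21, 11.08, 11.34 and 11.04. The log2 difference of Mt4 was 0.15 (95% interval -0.15 to 0.46). How Mt4 followed Mt1 across mice, and what its probe set measures in liver, was not tested.

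Mt1 and Mt2 followed each other closely from mouse to mouse. The order of the 8 mice was the same for both genes (Spearman's rho = 1.0, exact permutation p = 5.0e-05, adjusted p = 4.5e-04 over 9 relations of Mt1 with the other members). Pearson's r was 0.98 (exact permutation p = 2.5e-05, the smallest that the pairings of 8 mice can give, adjusted p = 2.2e-04), and 0.95 without HFD+WBM replicates 3 and 4, the mice farthest from the median. It was 0.94 among the 4 HFD mice and 0.99 among the 4 HFD+WBM mice. Both genes had higher levels with HFD+WBM and the permutation did not hold diet fixed, so these p-values also carry the diet difference. Over the 8 mice Mt1 spanned 2.47 and Mt2 3.88 log2 units. The genes are near copies of each other, and whether probes of one also bind transcripts of the other was not tested.

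Slc30a10 was lower in mice with higher Mt1 over both diets together. Pearson's r was -0.84 (exact permutation p = 0.0098, adjusted p = 0.044 over the 9 relations) and Spearman's rho was -0.90 (exact permutation p = 0.0046, adjusted p = 0.021). Without HFD+WBM replicates 3 and 4, r was -0.78. Both genes differed between the diets and the permutation did not hold diet fixed, so these p-values carry the diet difference and do not show a relation beyond it. Within a diet r was -0.95 among the 4 HFD mice and -0.47 among the 4 HFD+WBM mice. Values of that size also occurred at n = 4 for genes with little relation over all 8 mice: among the HFD+WBM mice r with Mt1 was 0.94 for Slc39a8, -0.84 for Mt3 and -0.79 for Slc30a1. The other 7 relations did not pass after adjustment, with adjusted permutation p of 0.37 to 0.95 for r; for Slc30a1 r was -0.30 and for Mtf1 -0.05.

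**Figure D3:**
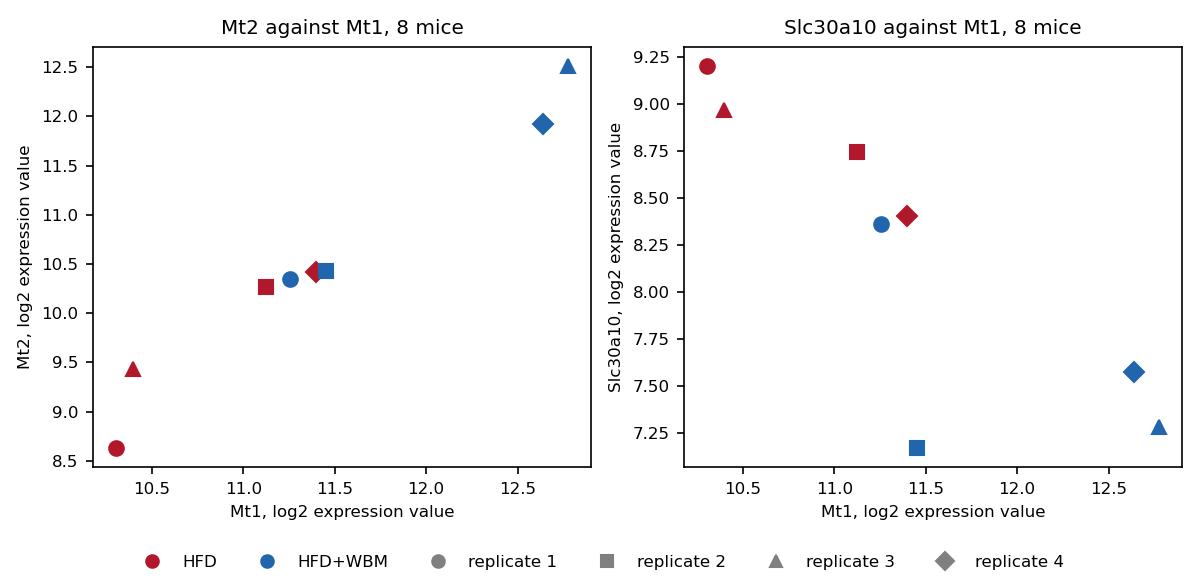
Log2 expression values of Mt2 (left) and Slc30a10 (right) against Mt1 in the 8 mice (red for HFD, blue for HFD+WBM, shapes for replicate numbers). Mt2 follows Mt1 in the same order of mice under both diets, and Slc30a10 is lowest in HFD+WBM mice, which have most of the highest Mt1 values.

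Genes whose levels were most like the mean of Mt1 and Mt2 over the 8 mice, among 9967 genes at or above the median gene in level, were Sec24a, a coat protein of secretory vesicles (r = 0.97), Olfr48, an olfactory receptor (r = 0.96), Cbx7, a Polycomb protein (r = 0.95), Ciart, a circadian repressor (r = 0.95), and Nkx2-3, a homeobox factor (r = 0.95). They were picked as the highest of so many, so their r is a description only. Between the diets, Ciart was 1.63-fold and Cbx7 1.36-fold higher at p under 0.05 before adjustment, and neither passed without HFD replicate 1 or HFD+WBM replicate 3. Cbx7 also did not pass without any of HFD replicates 2 and 3 and HFD+WBM replicates 2 and 4, or with the arrays centred on their medians. The log2 differences of Sec24a, Olfr48 and Nkx2-3 were 0.15, 0.23 and 0.26 and did not pass.

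Mtf1, the zinc sensor itself, showed no detectable difference. Its log2 value was 7.68, 7.08, 7.09 and 7.19 in HFD replicates 1 to 4 and 7.45, 7.44, 6.93 and 7.76 in HFD+WBM replicates 1 to 4. HFD+WBM replicate 3, the mouse with the highest Mt1, had the lowest Mtf1. The log2 difference was 0.14 (95% interval -0.35 to 0.62).

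Among the exporters, Slc30a10 was lower in each HFD+WBM mouse than in any HFD mouse. Slc30a10 encodes an exporter of the Slc30a family that is best known for clearing manganese from the liver. It (probe set 10352548) was 9.20, 8.75, 8.97 and 8.41 in HFD replicates 1 to 4 and 8.36, 7.17, 7.29 and 7.58 in HFD+WBM replicates 1 to 4. The groups met closely, since HFD replicate 4 and HFD+WBM replicate 1 were nearly equal, and the other 3 HFD+WBM mice lay far below. From 8.83 ± 0.34 (SD, n = 4) the mean went to 7.60 ± 0.54 (SD, n = 4), a log2 difference of -1.23 (standard error 0.28, 95% interval -1.86 to -0.60), or 2.35-fold lower. Limma gave p = 0.0015 before adjustment and an adjusted p of 0.36, with an exact two-sided permutation p of 0.029.

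Slc30a1, which encodes the zinc exporter of the plasma membrane and is a target of Mtf1 like Mt1 and Mt2, did not differ detectably. Its values were 9.83, 9.48, 9.28 and 9.14 in HFD replicates 1 to 4, and 9.56, 9.66, 9.46 and 9.30 in HFD+WBM replicates 1 to 4. All HFD+WBM mice lay within the range of the HFD mice. The log2 difference was 0.06 with a 95% interval of -0.34 to 0.47, which leaves out the 2.34-fold and 3.06-fold estimates of Mt1 and Mt2. Whether Slc30a1 and Mt1 differ in their response was not tested.

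Among the importers, Slc39a5 was the 1 with no overlap between the diets. Slc39a5 encodes a zinc importer of the basolateral membrane, found in gut, pancreas and liver. It (probe set 10373374) was 7.45, 7.41, 7.54 and 8.05 in HFD replicates 1 to 4 and 7.14, 6.23, 6.61 and 6.81 in HFD+WBM replicates 1 to 4. The highest HFD+WBM mouse, replicate 1, lay below the lowest HFD mouse, replicate 2. The HFD mean was 7.61 ± 0.30 (SD, n = 4) and the HFD+WBM mean 6.70 ± 0.38 (SD, n = 4), a log2 difference of -0.92 (standard error 0.23, 95% interval -1.43 to -0.41), or 1.89-fold lower. Limma gave p = 0.0026 before adjustment and an adjusted p of 0.37, with an exact two-sided permutation p of 0.029. Of the 10 genes it was the only one with a mean level below that of the median gene (7.27), where an offset before the log weighs most: with an offset of 64 its log2 difference was -0.63.

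The other importers did not pass. Slc39a14 encodes the main zinc and iron importer of hepatocytes in inflammation. It was 10.64, 10.70, 10.53 and 10.51 in HFD replicates 1 to 4 and 10.46, 10.87, 10.80 and 10.84 in HFD+WBM replicates 1 to 4. HFD+WBM replicates 2, 3 and 4 lay above all HFD mice and replicate 1 below them all, and the log2 difference was 0.15 (95% interval -0.18 to 0.48). Slc39a4, the importer of dietary zinc in the gut, ranged from 9.47 to 9.90 with HFD and from 9.22 to 9.85 with HFD+WBM, a log2 difference of -0.14 (95% interval -0.55 to 0.27). Slc39a8, an importer of zinc and manganese, ranged from 8.73 to 9.17 with HFD and from 8.74 to 9.02 with HFD+WBM, a log2 difference of -0.11 (95% interval -0.46 to 0.24). Over the 6 members that did not pass, the intervals ran from -0.55 to 0.62, so that none of them allowed a 2-fold difference.

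**Figure D4:**
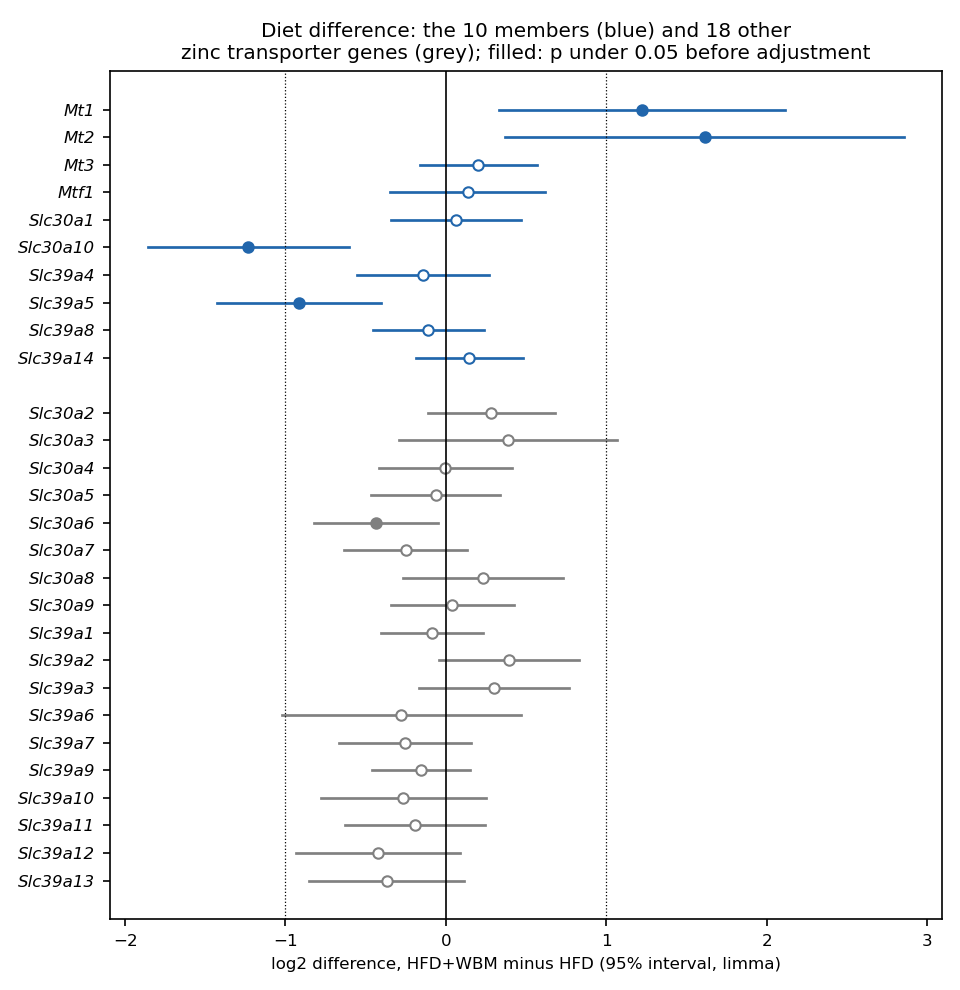
Log2 difference, HFD+WBM minus HFD, with its 95% interval from limma for the 10 genes (blue) and the 18 other zinc transporter genes (grey); filled points passed p under 0.05 before adjustment and dotted lines mark 2-fold. Mt1 and Mt2 lie to the right, Slc30a10 and Slc39a5 to the left, and Slc30a6 is the 1 filled point among the other zinc transporter genes, at -0.44.

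The remaining 18 genes of the Slc30a and Slc39a families were measured in the same fit. At p under 0.05 before adjustment 0 were higher and 1 lower, against 4.85% of all genes higher and 6.9% lower, and 17 did not pass. The 1 was Slc30a6, a zinc transporter of the Golgi, which was 8.62, 8.31, 8.55 and 8.19 in HFD replicates 1 to 4 and 8.06, 8.23, 7.66 and 7.99 in HFD+WBM replicates 1 to 4 (1.35-fold lower, overlapping). The log2 differences of the 18 ran from -0.44 to 0.39 with a median of -0.12. The 3 with the highest mean level were Slc39a1, an importer of the plasma membrane (log2 difference -0.09), Slc39a9, of the Golgi (-0.15), and Slc30a5, of the secretory pathway (-0.06), and none of them passed. Which genes of this list passed depended on the mice: without HFD replicate 2 the count was 6 (4 higher and 2 lower), without HFD+WBM replicate 1 it was 2, and without HFD replicate 3, HFD+WBM replicate 3 or HFD+WBM replicate 4 it was 0. Without HFD replicate 1 Slc30a6 did not pass before adjustment and Slc39a12 did.

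Metallothioneins answer to inflammatory signals and glucocorticoids as well as to zinc, and genes of these programmes were read beside them. A list of 15 genes of IL-6 and the acute phase held the signalling genes Il6ra, Stat3 and Socs3 beside genes of acute phase proteins. Of the 15, 5 were lower with HFD+WBM, 1 was higher and 9 did not pass, against 6.9% of all genes lower and 4.85% higher. The lower genes included Lcn2, which encodes the siderophore-binding protein lipocalin (log2 difference -1.46, standard error 0.28), and Saa2 (-1.26, standard error 0.26) and Saa1 (-1.36, standard error 0.34), which encode serum amyloid A. All HFD+WBM mice lay below all HFD mice for these 3 and for Orm1. That made 4 of the 15, against 5.02% of all genes. Saa1 was dim, with means of 7.22 with HFD and 5.86 with HFD+WBM, against 7.27 for the median gene. Over the other settings that kept all mice its log2 difference ran from -1.37 to -0.83. Orm1 and Orm2 were also lower, and the gene that was higher was Il6ra, the receptor of IL-6 (1.66-fold), named after its values were seen. Orm2 did not pass without HFD replicate 1 or HFD+WBM replicate 1. The median log2 difference of the 15 was -0.04, against 0.01 over all genes. Among those that did not pass, the fibrinogen genes Fga, Fgb and Fgg had log2 differences of 0.01, -0.01 and -0.01. That of Hp, haptoglobin, was -0.04. The part of these genes' regulators in the levels of Mt1 and Mt2 was not tested.

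A glucocorticoid list of 11 measured genes held induced genes and Nr3c1, the gene of the glucocorticoid receptor itself (log2 difference -0.01). Of the 11, 1 was higher and 10 did not pass, against 4.85% of all genes higher, so the count was near that of all genes. The higher gene was Per1, a clock gene that also answers to glucocorticoids (1.58-fold higher). It did not pass when any of HFD replicates 1 and 3 and HFD+WBM replicates 2, 3 and 4 was left out. With all mice kept, it also did not pass with array weights or with each gene tested on its own with equal variances. Pck1, of gluconeogenesis, had a log2 difference of 0.51 (standard error 0.23), and Tat, tyrosine aminotransferase, one of 0.31 (standard error 0.20). The median of the 11 was 0.30, against 0.01 over all genes. Without HFD+WBM replicate 1 the count was 4, without HFD replicate 2 it was 3, and without HFD replicate 1 no gene was higher and 1 was lower. Pck1 lay close to the threshold and passed with arrays centred or quantile-normalized, among other settings.

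**Figure D5:**
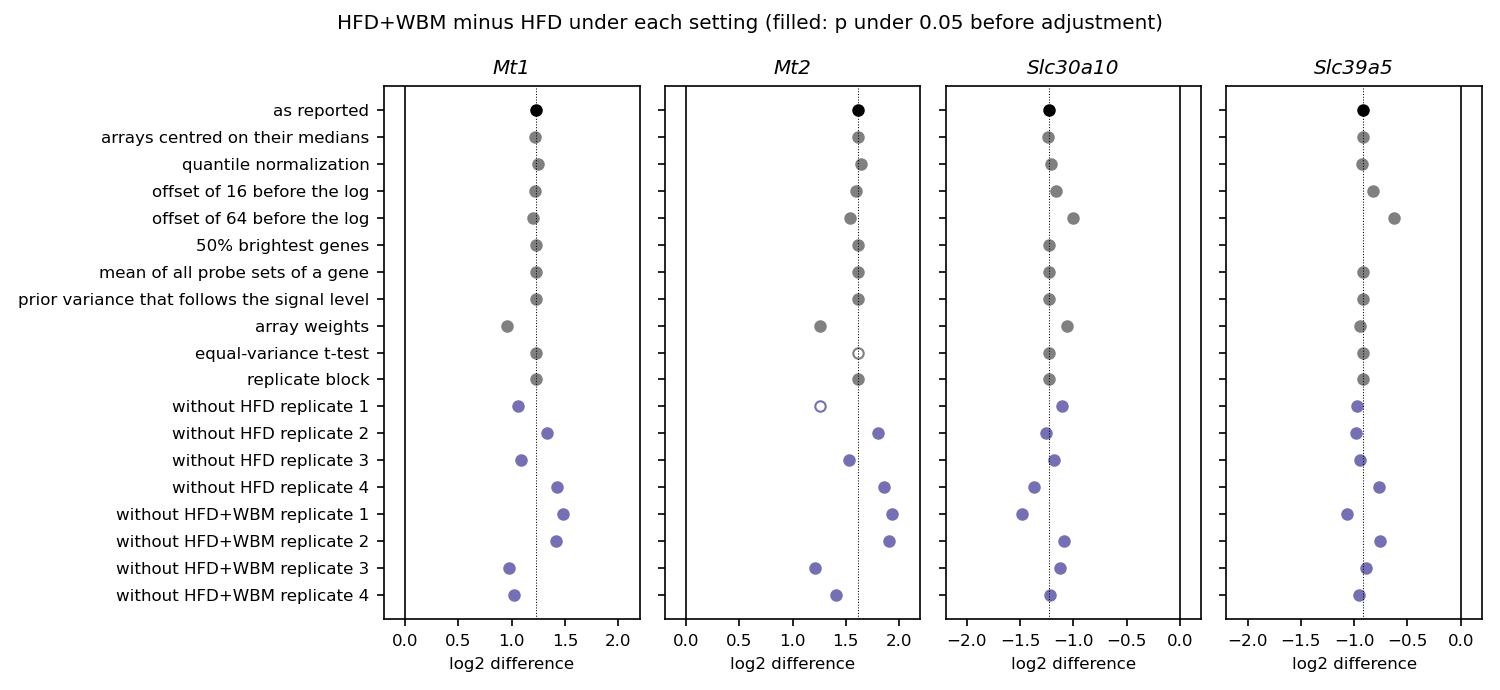
Log2 difference, HFD+WBM minus HFD, of Mt1, Mt2, Slc30a10 and Slc39a5 as reported (black), under other settings (grey) and without each mouse (purple); filled points had p under 0.05 before adjustment. All points keep the side of 0 of the reported value, and Mt2 is open where each gene kept its own variance and without HFD replicate 1.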

How the data were processed

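Total RNA of 8 livers, 4 per diet, was hybridized to Affymetrix Mouse Gene 1.0 ST arrays, and groups were taken from the submitters' labels. The authors background-corrected, normalized and summarized the intensities with IterPLIER (Affymetrix Power Tools 1.8.6). The deposited table holds log2 values for 28944 probe sets. The sources used here name neither an offset before the log nor a genome build. The annotation of the platform gave the gene names (21789 name 1 gene, 1621 several, 5534 none), of which 21698 matched GRCm38.p6 by gene number and 91 kept the annotation's name.

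Differences were fitted with lmFit and eBayes of limma 3.58.1 (R 4.3.3) over 19938 genes, with diet as its single factor and Benjamini-Hochberg adjustment over all genes. The fit was tested on simulated data. Exact permutation tests used all 70 divisions of the mice, or all pairings for a correlation. Labels name separate liver specimens, and the number of arrays limits the precision. Dim probe sets carry no background limit here.

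The members, the gene lists and the tests were chosen with earlier results of these data known. Named were all members, the zinc transporter genes past p under 0.05 and the 3 brightest of them, up to 3 genes per other list with the smallest p, and the 5 genes most like the mean of Mt1 and Mt2; other genes named were chosen after their values were seen. Not measured under the rule were Cdkn1a, Gsta1, Serpina1a, Pnlip and Amy2b, and 1 further listed gene is not reported here. Alternatives covered normalization, an offset of 16 or 64, the 50% brightest genes, the mean of probe sets, the variance prior, array weights, a test of each gene on its own with equal variances (the array methods name no test), a replicate block and leaving out each mouse, with the same for the list genes added after seeing the data.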

Additional observations from a re-analysis of the deposited data

Results flagged for a closer look

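Slc39a14 in HFD+WBM replicate 1 (log2 value 10.46) lay far below the other 3 HFD+WBM mice (10.80 to 10.87): the gap to the nearest of them was 0.831 of the range of the group, just above Dixon's 95% critical value for 4 samples. It was the 1 such case among 20 groups of 4 examined (10 genes in 2 diets), and chance gives about 1 in 20.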

How the results depend on the processing

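The log2 difference of Mt1 kept its direction and p under 0.05 before adjustment in all 18 other settings (0.95 to 1.48), as did that of Slc30a10 (-1.49 to -1.06, and just under 2-fold lower with an offset of 64), and that of Slc39a5 in the 17 that could be computed, since it was not among the 50% brightest genes. Mt2 did not pass in a test of each gene on its own with equal variances (log2 difference 1.61; its exact permutation p was 0.057) nor without HFD replicate 1, and leaving out a mouse moved it between 1.21 and 1.93. The number of members past p under 0.05 was 3 or 4, and past the study's thresholds 2 to 4. With array weights the log2 difference was 0.95 for Mt1 and 1.26 for Mt2, and no other zinc transporter gene passed (0). Leaving out a mouse moved that count between 0 and 6. When the prior variance was tied to the signal, 139 genes (0.697%) had an adjusted p under 0.05 in limma, against 0 with a common prior; the adjusted p was 0.016 for Mt1, 0.021 for Mt2, 0.0053 for Slc30a10 and 0.063 for Slc39a5. With an offset of 64 before the log it was 0.047 for Mt1 and 0.0092 for Slc30a10. The cause of these changes was not tested. Mice of the 2 diets share only a replicate number: the deviations of same-numbered mice correlated from -0.12 to -0.02 over the 4 pairs. With the replicate block, Mt1, Mt2, Slc30a10 and Slc39a5 still passed p under 0.05 and the count of the other zinc transporter genes was 0. At 4 mice per diet, the 95% intervals given bound the differences that could have been missed.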

Other observations

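Metallothioneins also bind copper, and of 10 genes of copper handling 3 had lower and 0 had higher levels under HFD+WBM in the limma fit (p under 0.05 before adjustment), against 6.9% and 4.85% of all genes. Among them were Commd1, which takes part in copper export (1.44-fold lower), and Atox1, the chaperone that brings copper to the secretory pathway (1.29-fold). The last was Cp, ceruloplasmin, the copper protein of plasma (1.24-fold). For these 3 of the 10, all HFD+WBM mice lay below all HFD mice, against 5.02% of all genes. The log2 difference of Commd1 ran from -0.53 to -0.36 over the other settings that kept all mice. The copper pump genes Atp7a and Atp7b had log2 differences of -0.31 and -0.10 and did not pass. The count was 1 with quantile normalization, with the replicate block and without HFD replicate 1, 3 or 4 or HFD+WBM replicate 3 or 4, and 4 without HFD replicate 2.

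Of 8 measured targets of NRF2, the regulator of the antioxidant response that also acts on metallothionein genes, 2 were lower with HFD+WBM, against 6.9% of all genes: Hmox1, heme oxygenase, with no overlap between the diets (log2 difference -0.58), and Srxn1, sulfiredoxin, with overlap (-0.59). Srxn1 did not pass when HFD replicate 1 or 4 or HFD+WBM replicate 2 or 3 was left out. Hmox1 is also made by macrophages, whose markers were lower with HFD+WBM, and the part of that in its difference was not tested. Txnrd1, thioredoxin reductase, had a log2 difference of -0.22 (standard error 0.13) and did not pass in limma. All HFD+WBM mice lay below all HFD mice for it as for Hmox1, 2 of the 8, against 5.02% of all genes. Of the 8 estimates 5 were below 0 and 3 above. In a test of each gene on its own with equal variances, 1 target was higher and 2 were lower.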
